A study of Mus musculus with 4 samples.

Results

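The 10 genes of fatty acid uptake and binding were described in livers lacking NIPP1: Cd36, Slc27a1, Slc27a2, Slc27a4, Slc27a5, Fabp1, Fabp2, Fabp4, Fabp5 and Vldlr. They were taken by gene name from the array annotation, with every probe that is not a control. This gave 10 genes on 12 of the 39429 probes, and all 10 were among the 16314 genes tested. The knockout mice had a conditional deletion of NIPP1, a nuclear regulatory subunit of protein phosphatase 1 that is encoded by Ppp1r8, in the liver. They were 4 untreated males of a mixed strain, aged 2 months. The control mice were 4 untreated males of the same age and strain description. Neither label names the Cre line, the deleted exons or the alleles that the controls carry. Total liver RNA was measured on 4 Agilent arrays, each with 1 knockout and 1 control mouse in different dyes. The knockout mouse was labelled with Cy3 on replicates 1 and 2, with Cy5 on the other arrays, and no mouse was measured more than once. Per the labels no technical repeats were made, so the spread between arrays is a spread between pairs of mice.

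Long-chain fatty acids reach the hepatocyte bound to albumin or inside lipoproteins. CD36, a scavenger receptor of the plasma membrane, and the fatty acid transport proteins of the Slc27 family promote their entry, and Slc27 proteins also join them to coenzyme A. Inside the cell, fatty acid binding proteins of the Fabp family carry them between membranes and to the nucleus, while the VLDL receptor takes up lipoproteins rich in triglyceride. Cd36 is normally low in mouse hepatocytes and is a known target of the nuclear receptor PPAR gamma.

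The measurements on which the results turn came from the following 60-base probes, given by the first 30 bases 5′ to 3′ and by their mm9 position in the array files. They are shown because each gene is read through 1 or 2 short stretches of its transcript, and because probes of Slc27a5 and of Vldlr gave different values. All letters are in lower case since no motif is marked. The transcript feature that each probe lies in was not analysed here.
Cd36, chr5:17288600-17288659, minus strand: aagaatgaaaaatgaacaattcacatgtga
Slc27a5 probe 1, chr7:13573701-13573760, minus strand: tgtccgggttccagatgcccatggcccagt
Slc27a5 probe 2, chr7:13573924-13573983, minus strand: aacacctacaagctggtaaagtcacgactg
Fabp5, chr3:10016185-10016244, plus strand: gtcaaatgcaacaaacagcttcacttcttt
Vldlr probe 1, chr19:27324050-27324109, plus strand: ctttttcaatggttgggacaatggcaatag
Vldlr probe 2, chr19:27321104-27321163, plus strand: acagtgagacaaaagatatcaacacaacag

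Ppp1r8 was examined first as a check of the labels. Probe 1 of Ppp1r8 had log2 ratios of knockout over control of -0.60, -0.73, -0.74 and -0.63 on replicates 1 to 4, and probe 2 had -0.66, -0.59, -0.59 and -0.75. On both probes the 4 knockout levels lay below the 4 control levels. This was found for 816 of the tested genes (5%), each read by the probe that stands for it. The adjusted p of Ppp1r8 was 0.0589 in limma. The scanner software's own background-subtracted intensities for probe 1 were 56.1, 43.7, 51.0 and 53.1 in knockout mice, against 127, 120, 134 and 129 in control mice. Its ratios were therefore smaller on the scale used here, which adds an offset to every spot, than in the deposited intensities. The labels do not say which exons were removed, so it is unknown whether these probes fall within them. The ratios of whole arrays correlated, across 16314 genes, at 0.53 between replicates 3 and 4, at -0.27 between replicates 1 and 4 and at 0.16 to 0.27 for the other pairs. Genes are not independent replicates, so these are descriptions of the arrays. In each dye on each array 52.7% to 56.3% of spots cleared the background, no spot was saturated, and the number of arrays limits the precision.

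Every one of the 12 member probes was well above background in all 8 mice, and none carried an outlier mark. No member passed an adjusted p of 0.05 in limma, and neither did any other gene (0% of 16314 genes higher and 0% lower). The smallest adjusted p of any gene was 0.0537, while 3708 genes (22.7%) had an unadjusted p below 0.05. Of the 10 members, 5 had an unadjusted p below 0.05, namely Cd36, Slc27a2, Slc27a5, Fabp2 and Vldlr. At an adjusted p below 0.1 there were 573 higher genes (3.51%) and 334 lower genes (2.05%), and among them were 2 higher members, Cd36 and Slc27a5, and no lower member. The members' mean log2 ratios ran from -1.14 for Fabp5 to 2.01 for Cd36, with 5 above 0 and 5 below 0 and a median of 0.03, against a median of -0.0007 over all tested genes.

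**Figure D1:**
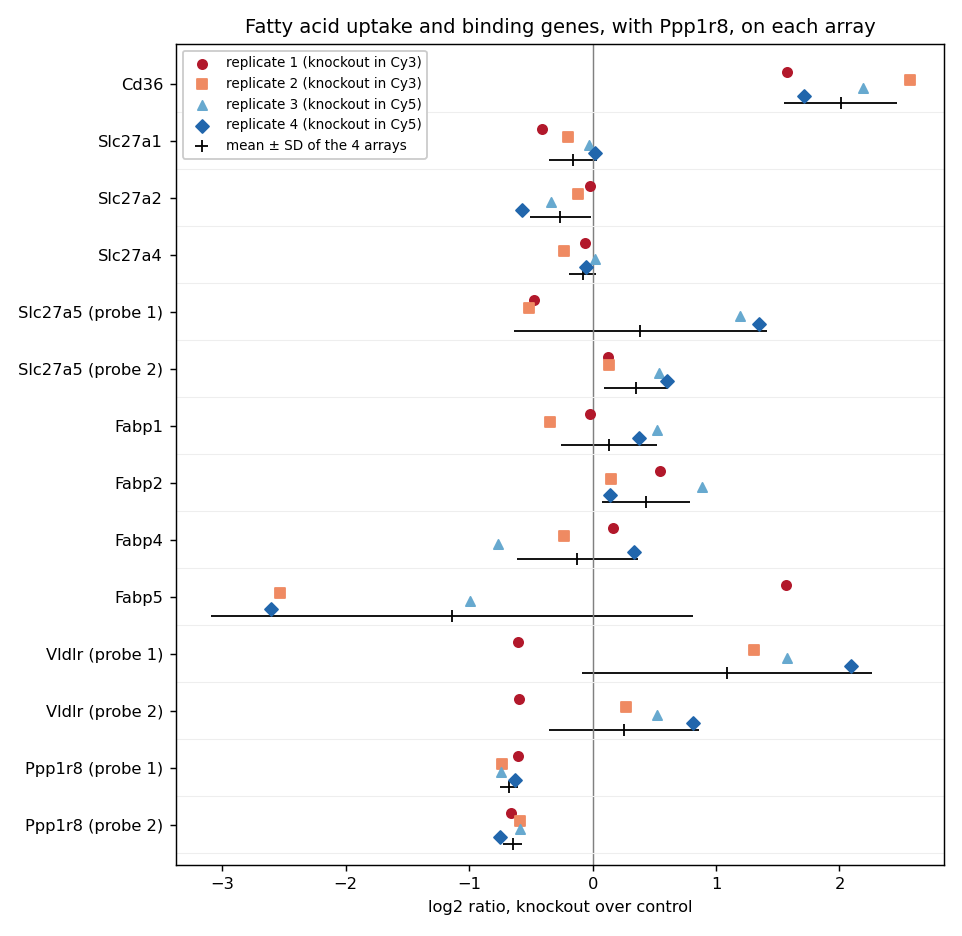
Log2 ratio of knockout over control (horizontal axis) for the 12 probes of the 10 genes and the 2 probes of Ppp1r8, with 1 symbol per array and the mean ± SD below. Cd36 lies between 1.57 and 2.57 on all 4 arrays, whereas Fabp5 and Vldlr have replicate 1 on the other side of 0 from replicates 2 to 4.

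Cd36, the fatty acid translocase, was the member furthest from 0. Its normalized log2 intensity was 10.39, 10.66, 10.98 and 9.87 in the knockout mice of replicates 1 to 4, against 8.82, 8.09, 8.78 and 8.17 in the control mice. The lowest knockout mouse was above the highest control mouse. Knockout levels lay wholly above control levels for 1160 of the tested genes (7.11%), each read by the probe that stands for it, and Cd36 was the 1 member among them. Array by array, the log2 ratio was 1.57, 2.57, 2.19 and 1.71, which is a mean of 2.01 (SD 0.457, n = 4 arrays) or 4.03-fold. In the deposited processed intensities the knockout mice had 1222, 1343, 1781 and 746, against 374, 182, 340 and 183 in the control mice.

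The limma fit put Cd36 at 2.01 ± 0.20 (SE) with a 95% interval of 1.48 to 2.54, an unadjusted p of 0.00037 and an adjusted p of 0.0589. The exact two-sided sign-flip test over the 4 array ratios gave p = 0.125, which is the smallest it can give with 4 arrays. The mean ratio was 2.07 with the knockout in Cy3 and 1.95 with the knockout in Cy5, so both dye orientations gave the same direction. Cd36 ranked 4th among all tested genes from the highest mean ratio down. A mean of at least 1.5-fold with all 4 arrays above 0 was seen for 194 genes (1.19%), of which Cd36 was 1. In whole-liver RNA, fewer cells of a type and less RNA per cell cannot be told apart, and the same holds for more.

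CD36 is also present on endothelial cells, macrophages and adipocytes, so markers of these cells were read on the same arrays. The 10 endothelial markers had medians of -0.03, -0.12, -0.12 and -0.02 on replicates 1 to 4, and their summed intensity was 17816 to 20285 in knockout mice, against 19322 to 21714 in control mice. The 10 macrophage and Kupffer cell markers had medians of 0.19, -0.22, -0.29 and 0.06, with sums of 15829 to 30604 in knockout mice, against 20034 to 25854 in control mice. Of 7 adipocyte markers 4 were bright enough to test and had medians of 0.71, -0.16, -0.40 and 0.04, with sums of 621 to 1238 in knockout mice, against 494 to 1588 in control mice. The marker Retn had no value on replicate 2, so the median and sums of that replicate leave it out. The knockout sum of 621 is from replicate 2. Adipoq, Plin1 and Lep, which define fat cells, did not pass the filter on dim probes. The part of these cell types in the Cd36 values was not tested. The 6 hepatocyte markers, all of them detected, had medians of -0.18, -0.19, -0.13 and 0.29.

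**Figure D2:**
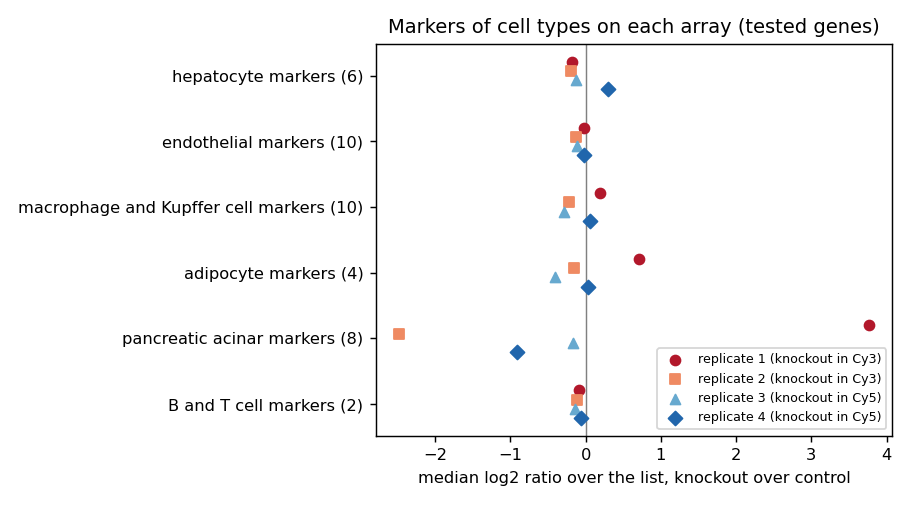
Median log2 ratio of knockout over control (horizontal axis) of the tested markers of each cell type, with 1 symbol per array and the number of tested genes in parentheses. Pancreatic acinar markers spread from -2.48 to 3.77, and the endothelial, macrophage and hepatocyte medians lie between -0.29 and 0.29.

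Of the Slc27 family, 3 members had mean ratios below 0 and Slc27a5 had a mean above 0. Slc27a1, the transport protein best known from muscle and fat, had ratios of -0.41, -0.20, -0.03 and 0.02, with a fitted log2 ratio of -0.16 ± 0.06 (SE) and an adjusted p of 0.223 in limma. Slc27a4, the main form of the intestine, had -0.06, -0.23, 0.02 and -0.05, with an adjusted p of 0.437. Slc27a1 was -0.10 without replicate 1, and Slc27a4, at -0.08 over all 4 arrays, was -0.04 without replicate 2 and -0.12 without replicate 1. In both genes the levels of knockout and control mice overlapped. Both genes were below 0 on all 4 arrays in the deposited processed intensities. Slc27a1 had -0.65, -0.25, -0.16 and -0.05 there, and Slc27a4 had -0.12, -0.36, -0.10 and -0.13. Those intensities had no centring added, and the medians over all their values were -0.05, 0.14, -0.18 and -0.18. Slc27a2, a hepatic transport protein and very long chain acyl-CoA synthetase, had -0.02, -0.12, -0.34 and -0.57. All 4 of its ratios were below 0, a mean of -0.26 ± 0.06 (SE), but the limma adjusted p was 0.124 and the levels overlapped. The mean was -0.07 with the knockout in Cy3 and -0.45 with the knockout in Cy5. The standard error leaves out this difference, because the fit has a dye term. Without the dye term the limma adjusted p of Slc27a2 was 0.335. A single sign on all 4 arrays was found for 3938 genes (24.1%) and for 3 members, Cd36, Slc27a2 and Fabp2. In the deposited processed intensities Slc27a2 was above 0 on replicates 1 and 2, at 0.14 and 0.02, and below 0 on replicates 3 and 4, at -0.43 and -0.76.

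Slc27a5, the liver transport protein that also activates bile acids for conjugation, split by dye orientation. Probe 1 had log2 ratios of -0.48 and -0.52 with the knockout in Cy3, and 1.20 and 1.35 with the knockout in Cy5. The levels on probe 1 were 16.63, 16.36, 17.07 and 17.07 in knockout mice, against 17.11, 16.88, 15.87 and 15.72 in control mice, and the groups overlapped. The fit gave 0.39 ± 0.05 (SE) with an adjusted p of 0.0668 in limma, and this standard error leaves out the difference between the orientations because the fit has a dye term. Without the dye term the value was the same and the adjusted p was 0.711.

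Probe 2 of Slc27a5 had ratios of 0.12, 0.13, 0.54 and 0.60, a mean of 0.35 (SD 0.258, n = 4). Its levels were 15.97, 15.87, 16.13 and 15.99 in knockout mice, against 15.84, 15.74, 15.59 and 15.39 in control mice. On this probe every knockout mouse was above every control mouse, so the probes of the gene disagreed on replicates 1 and 2. Such a separation was found for 1160 of the tested genes (7.11%), each read by the probe that stands for it. For Slc27a5 that is probe 1, on which the groups overlapped. Both probes had larger ratios in the orientation with knockout RNA in Cy5. The orientations differed in sign for 3958 genes (24.3%) and for 2 members, Slc27a5 and Fabp1. Alb, an abundant hepatocyte gene named after its values were seen, had -0.44, -0.24, 1.20 and 1.24 on the same arrays. The rest of the hepatocyte markers, also given after their values were seen, were mixed. Ttr and Apoa1 changed sign between the orientations in the direction of Alb. Hnf4a changed sign in the opposite direction, at 0.05, 0.27, -0.35 and -0.33, while Tat and Cps1 did not split by orientation. Each orientation held different mice, so dye and mice cannot be told apart within an orientation.

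Among the binding proteins, Fabp1, the abundant liver form, had log2 ratios of -0.02, -0.34, 0.52 and 0.38. Its levels were 16.78, 16.53, 16.83 and 16.99 in knockout mice, against 16.80, 16.87, 16.31 and 16.62 in control mice. The groups overlapped, and the fitted log2 ratio was 0.13 ± 0.07 (SE) with a 95% interval of -0.07 to 0.34 and an adjusted p of 0.364 in limma. It was 0.05 without replicate 1 and 0.21 without replicate 2. In the deposited processed intensities the ratios of Fabp1 were 0.37, -0.0007, 0.28 and -0.0033, an order that did not follow the dye orientation.

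Fabp2, the intestinal form, was above 0 on all 4 arrays, with log2 ratios of 0.55, 0.15, 0.89 and 0.14. Its levels were 14.72, 14.11, 14.55 and 14.27 in knockout mice, against 14.17, 13.96, 13.66 and 14.13 in control mice. The lowest knockout mouse was below 2 of the control mice, and the fitted 0.43 ± 0.15 (SE) had an adjusted p of 0.206 in limma. It was 0.25 without replicate 3 and 0.62 without replicate 4. None of the 6 enterocyte markers passed the filter on dim probes. Fabp4, the form of adipocytes and macrophages, had ratios of 0.16, -0.23, -0.77 and 0.34, and its levels overlapped. Its fitted log2 ratio was -0.12 ± 0.21 (SE) with an adjusted p of 0.756 in limma, and without replicate 3 it was 0.15.

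Fabp5, the epidermal form, varied more between pairs of mice than any other member. Its log2 intensity was 14.08, 12.73, 12.42 and 12.51 in the knockout mice, against 12.51, 15.27, 13.41 and 15.11 in the control mice. The highest levels were those of the control mice of replicates 2 and 4, and the control mouse of replicate 1 was as low as the knockout mice of replicates 3 and 4. The log2 ratios were 1.57, -2.54, -0.99 and -2.60 (SD 1.95), and 0.239% of tested genes had a larger SD. An SD of at least 1 was found for 245 genes (1.5%), of which 3 were members, Slc27a5, Fabp5 and Vldlr.

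The fitted log2 ratio of Fabp5 was -1.14 ± 0.76 (SE) with an adjusted p of 0.431 in limma. It was -2.17 without replicate 1, with an adjusted p of 0.153, -0.11 without replicate 2 and -0.74 without replicate 4. The 8 pancreatic acinar markers had medians of 3.77, -2.48, -0.17 and -0.91 on replicates 1 to 4. Their summed intensity was 34192, 4540, 4507 and 4274 in the knockout mice, against 5421, 9943, 4737 and 5275 in the control mice. Both Fabp5 and the medians of these markers were above 0 on replicate 1 and below 0 on replicates 2 to 4. On replicate 3 the marker Cel was above 0, at 0.37, while the rest of the markers were below 0. The markers' part in the Fabp5 values was not tested. A Fabp5 pseudogene is annotated on another chromosome, and whether the probe also reads it is uncertain.

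**Figure D3:**
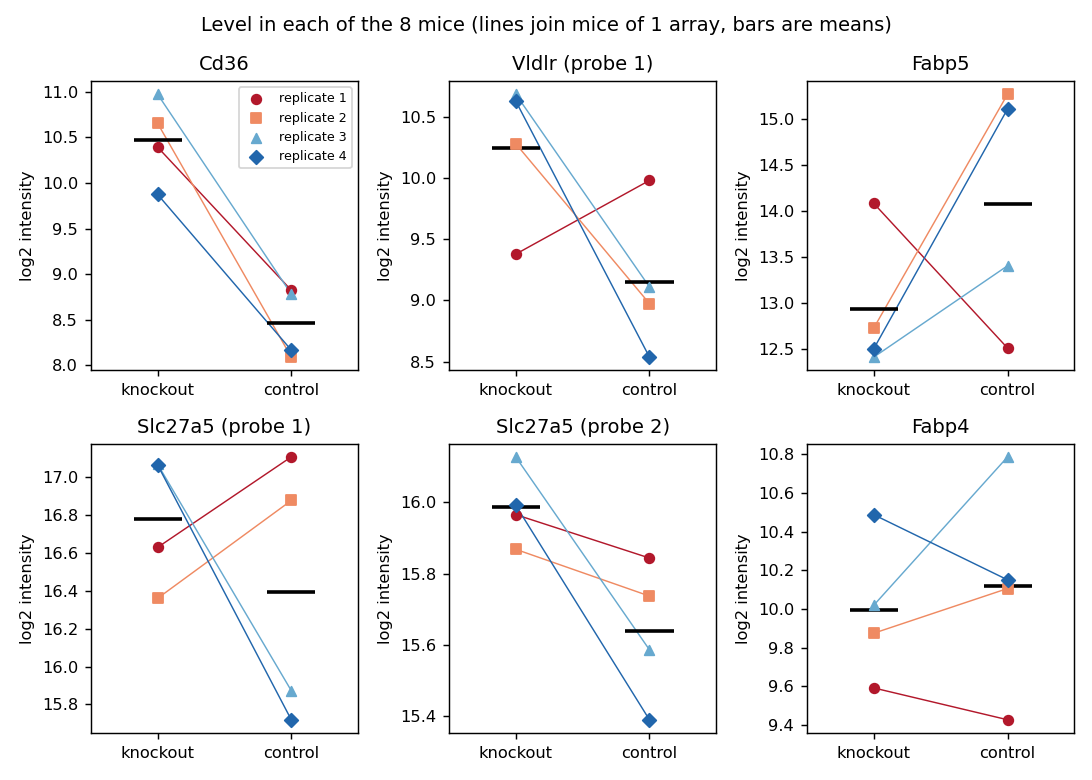
Normalized log2 intensity (vertical axis, a separate range in each panel) in the 4 knockout mice (left) and the 4 control mice (right), with lines joining mice of 1 array and bars at the means. Knockout and control levels are apart for Cd36 and for probe 2 of Slc27a5 and overlap in the other panels.

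Vldlr, the receptor for very low density lipoprotein, was read by 2 probes. On probe 1 the log2 intensity was 9.38, 10.28, 10.68 and 10.63 in knockout mice, against 9.98, 8.97, 9.11 and 8.54 in control mice. The knockout mouse of replicate 1 was below its control, and the other 3 knockout mice were above all 4 controls. The log2 ratios were -0.60, 1.31, 1.57 and 2.09, a mean of 1.09 (SD 1.18, n = 4) or 2.13-fold. The fit gave 1.09 ± 0.34 (SE) with a 95% interval of 0.16 to 2.02 and an adjusted p of 0.177 in limma. It was 1.57 without replicate 1, with an adjusted p of 0.110, and 0.61 without replicate 2.

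Probe 2 of Vldlr had -0.60, 0.27, 0.52 and 0.82, so both probes had replicate 1 below 0 and replicates 2 to 4 above 0. In the deposited processed intensities the same probe had log2 ratios of -1.12, 0.60, 0.83 and 1.60. The mean of both probes gave 0.67 for the gene. Angptl8, a liver-secreted regulator of lipoprotein lipase, also had replicate 1 apart, at -0.24, against 2.14, 1.77 and 1.70 on replicates 2 to 4. It was singled out after its values were seen, and its adjusted p was 0.171 in limma.

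Other genes of the pathway were read in 4 lists. None of their members passed an adjusted p of 0.05. The counts below stand against 22.7% of all tested genes with an unadjusted p below 0.05 in limma, and 24.1% with 1 sign on all 4 arrays. Of 16 other fatty acid carriers 11 were tested, with 8 above 0 and 3 below 0, 3 at an unadjusted p below 0.05 and a median log2 ratio of 0.11. The carriers with 1 sign on all 4 arrays were Fabp7, Scarb2 and Got2. Fabp7, the brain form, had -0.62, -0.43, -0.04 and -0.08, a fitted -0.29 with an adjusted p of 0.0972 in limma. Scarb2, a lysosomal relative of CD36, had 0.09, 0.08, 0.28 and 0.33, a fitted 0.20 with an adjusted p of 0.121. Got2, an aspartate aminotransferase also described as a fatty acid binding protein of the plasma membrane, had 0.29, 0.22, 0.10 and 0.03. Its fitted value was 0.16 with an adjusted p of 0.165. Fabp12, named after its values were seen, had 0.56, -0.76, -0.73 and -1.18, with replicate 1 apart as in Fabp5. Of 9 acyl-CoA synthetases, which trap fatty acids as thioesters, 5 were tested, with 3 above 0, 2 below 0, 1 at an unadjusted p below 0.05 and a median of 0.09. Acsl4, which prefers arachidonic acid, was the 1 with a single sign on all 4 arrays, at 0.09. Slc27a3 and Slc27a6 belong to both lists, and Slc27a6 was too dim to test.

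Of 23 genes of lipoprotein lipase, its regulators and lipoprotein receptors 20 were tested. They were 10 above 0 and 10 below 0, with 9 at an unadjusted p below 0.05 and a median of -0.01. Apoc2, the cofactor that lipoprotein lipase needs, had 0.50, 0.31, 1.06 and 0.61, and its fitted log2 ratio was 0.62 ± 0.09 (SE) with an adjusted p of 0.0759 in limma. Sort1, the sorting receptor sortilin, had -0.01, -1.40, -0.51 and -0.94, a fitted -0.72 with an adjusted p of 0.208. Apoa5, an activator of the lipase, was at -0.32 with an adjusted p of 0.174 in limma. Lpl, the lipase itself and named outside that rule, had 0.39, -0.37, -1.21 and -0.18, with no single sign.

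All 10 listed transcription factors known to regulate Cd36 were tested, with 6 above 0, 4 below 0, 3 at an unadjusted p below 0.05 and a median of 0.07. The 3 factors with 1 sign on all 4 arrays were all above 0. Over all tested genes 24.1% had 1 sign on all 4 arrays, and 22.7% had an unadjusted p below 0.05 in limma. Nfe2l2, which encodes the stress factor NRF2, lay between 0.26 and 1.09 on the 4 arrays, with a fitted log2 ratio of 0.74 ± 0.08 (SE) with an adjusted p of 0.0589 in limma. Pparg, the nuclear receptor PPAR gamma, had 0.43, 0.18, 1.36 and 0.69, a fitted 0.67 ± 0.13 (SE) with an adjusted p of 0.101. Nr1h3, the oxysterol receptor LXR alpha, had 0.26, 0.33, 0.26 and 0.19, a fitted 0.26 ± 0.05 (SE) with an adjusted p of 0.0947. Ppara, the fatty acid receptor of hepatocytes, had -0.70, -0.32, 0.03 and 0.56, and was given after its values were seen.

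**Figure D4:**
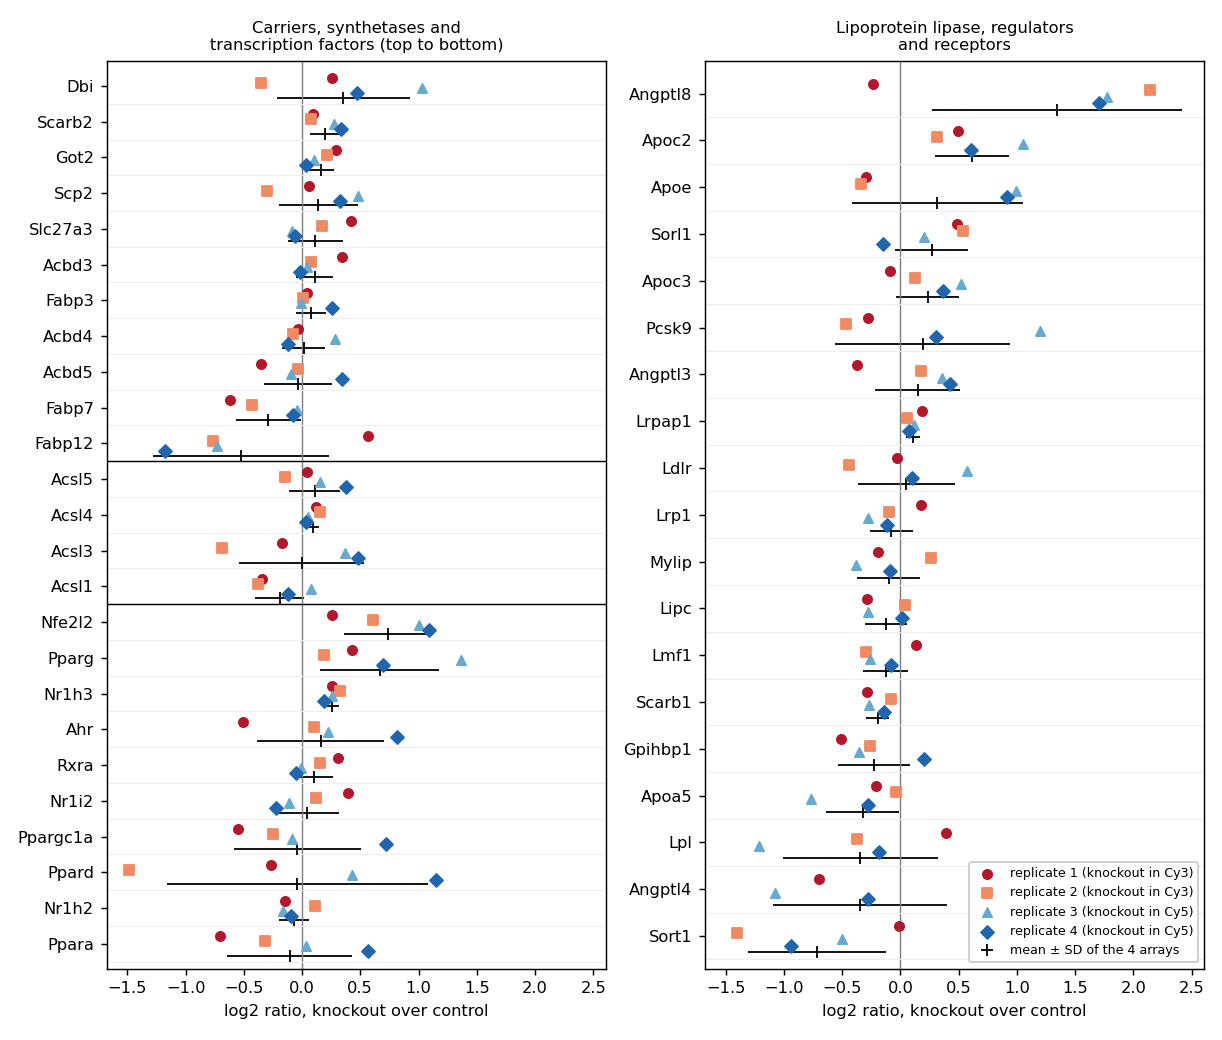
Log2 ratio of knockout over control (horizontal axis) of tested genes of the 4 lists, with 1 symbol per array and the mean ± SD below each gene. Nfe2l2, Pparg, Nr1h3 and Apoc2 are among the genes above 0 on all 4 arrays, and Angptl8 has replicate 1 at -0.24. Slc27a3 is drawn once.

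Promoters of Cd36 and Fabp1 are shown because both genes are known targets of PPAR receptors and gave different values here, 2.01 and 0.13. Sequences are the 250 bases before the annotated start in RefSeq on GRCm38.p6, 5′ to 3′ on the strand of the gene, and capitals mark matches on either strand to AGGTCA or to a direct repeat, in which AGGNCA occurs in 2 copies with 1 base between them and N is any base. The motifs can overlap, since AGGTCA is 1 form of AGGNCA.
Cd36, chr5:17835897-17836146, minus strand: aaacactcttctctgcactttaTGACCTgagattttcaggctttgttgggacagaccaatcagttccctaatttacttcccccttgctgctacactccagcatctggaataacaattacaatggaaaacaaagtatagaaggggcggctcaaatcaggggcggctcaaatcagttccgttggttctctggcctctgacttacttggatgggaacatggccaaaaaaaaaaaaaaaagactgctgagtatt
Fabp1, chr6:71199629-71199878, plus strand: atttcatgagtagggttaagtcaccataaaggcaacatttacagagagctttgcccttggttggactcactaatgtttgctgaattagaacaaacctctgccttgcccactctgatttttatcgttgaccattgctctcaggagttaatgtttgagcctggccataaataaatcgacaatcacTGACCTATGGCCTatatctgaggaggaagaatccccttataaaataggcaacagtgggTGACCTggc
Within its window of 250 bases, Cd36 held 1 match to AGGTCA, with its first base 228 bases upstream of the start, and no match to the repeat. Bases outside the windows were not searched, so the absence of a match holds for the window only. Fabp1 held a match to the repeat 67 bases upstream and a second AGGTCA nearer the start. AGGTCA was found in 14% of 32851 promoter windows and the repeat in 0.338%. The promoter table matched 7 of the 10 genes, with 10 windows, of which 3 held AGGTCA, in Cd36, Fabp1 and Slc27a2, and 1 held the repeat. Slc27a5, Fabp4 and Fabp5 were not matched. A match is a description of letters and not a bound site.

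The genes whose 4 array ratios were nearest to those of Cd36 were taken by the root mean square difference over the 4 arrays. Unnamed probes and genes with a clone or model name were left out of this choice. The median difference, with those included, was 2.06 over all ranked genes. The nearest was Dmbt1, a secreted scavenger receptor glycoprotein, at a difference of 0.316, with log2 ratios of 2.18, 2.59, 2.35 and 1.61. Vnn1, a pantetheinase, followed at 0.371 with 1.37, 1.93, 1.99 and 1.46. Mogat1, which makes diacylglycerol from monoacylglycerol, was at 0.511 with 1.79, 1.63, 2.52 and 1.58. The other 5 were Col5a3, a collagen chain, at 0.536, Mas1, a receptor for an angiotensin peptide, at 0.600, Ifi27l2b at 0.626, Tpm2, a tropomyosin, at 0.656, and Clstn3, a calsyntenin, at 0.674. All 8 were above 0 on all 4 arrays, as closeness to Cd36 required, and their levels are a description with no test.

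**Figure D5:**
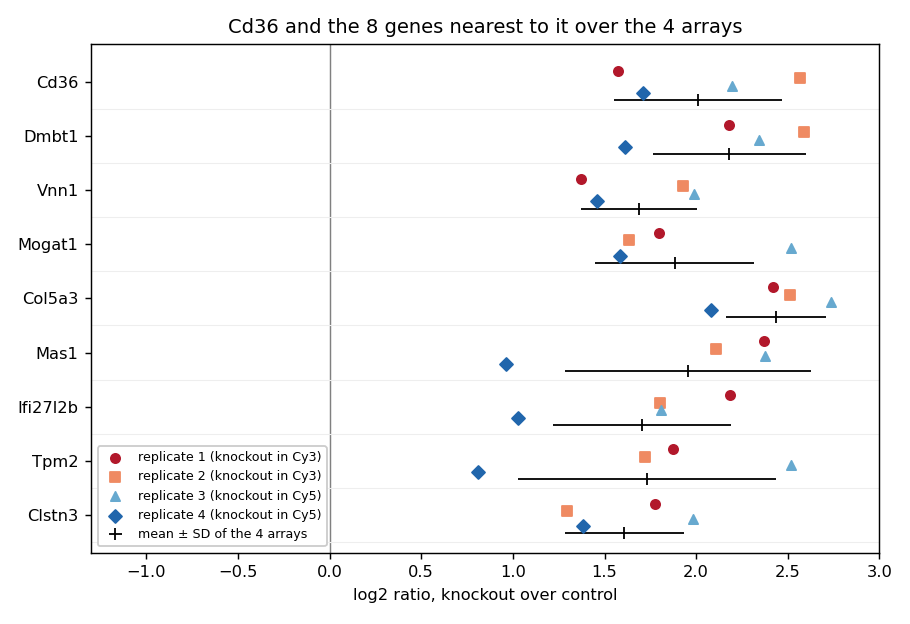
Log2 ratio of knockout over control (horizontal axis) of Cd36 and the 8 genes with the smallest root mean square difference from it, nearest at the top. Genes with a clone or model name are left out. There is 1 symbol per array, with the mean ± SD below. Replicate 4 is the lowest array for Dmbt1, Mogat1, Col5a3, Mas1, Ifi27l2b and Tpm2, and replicate 1 is the lowest for Cd36 and Vnn1.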

How the data were processed

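Per the labels' protocols, total liver RNA was spiked with control transcripts, turned into amplified cRNA and dye-labelled. Per the file headers, the deposited spot intensities (mean signal and median local background) come from Agilent Feature Extraction 10.7.3.1. The authors' deposited value table gives log2 ratios. All 43020 of its values on each array lay within 0.0001 of log2 knockout over control of the deposited processed intensities in spot order, so scale and direction are known, and the column medians of -0.05, 0.14, -0.18 and -0.18 show that no centring was added. No other columns of per-sample values were found.

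Background was corrected by normexp with an offset of 50, which shrinks ratios of dim probes. Its parameters were fitted without spots that carried an outlier mark or lay more than 20 units under local background, because the fit on every spot gave background means of -273 (Cy3) and -185 (Cy5) on replicate 1, against 4.07 and -12.2 with those spots held out. Ratios were normalized by loess within arrays. Control spots and outlier-marked spots (194 to 230 per array) were left out, and spots of a probe were averaged. Levels per mouse were also quantile-scaled on average intensity between arrays. Probes entered the test if 3 or more mice of either genotype had them well above background, and each gene was read from its brightest probe on average, which left 20833 probes and 16314 genes or unnamed probes. Symbols were updated through RefSeq accessions for 30708 spots, and 6273 spots had no gene name.

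The test was limma 3.58.1 in R 4.3.3 on the 4 array ratios, with an intercept for dye and a knockout effect whose sign followed the dye. For every gene the standard error of this fit leaves out the difference between the dye orientations. Two-sided p-values were adjusted over all tested genes (Benjamini-Hochberg), with a threshold of 0.05. The script was tested on simulated data. The alternatives tried were other background corrections and offsets, median centring, no dye term, a separate-channel fit, other filters and probe rules, a trended robust fit and leaving out each replicate.

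The members, lists and tests were chosen with earlier results of these data known. Named genes were all members, Ppp1r8, up to 4 genes per list with 1 sign on all arrays and the largest mean ratio, and genes near Cd36. The last were the 8 nearest to Cd36 among genes without a clone or model name. Any other gene is said to have been chosen after its values were seen. The dye orientation is the batch that the labels give. The values of each array stand beside the results of the members, while some other genes are given without them. A gene that this rule names in the list of lipoprotein lipase, its regulators and receptors is not reported here, though it is counted in the list.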

Additional observations from a re-analysis of the deposited data

Results flagged for a closer look

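Among 42 sets of 4 values (per probe, the levels of the knockout mice, the levels of the control mice and the array ratios) checked for a value far from the other 3, 2 were marked, and chance marks about 1 in 20. The control mouse of replicate 4 had a Slc27a1 level of 8.19 (log2 intensity), against 7.70 to 7.78 in the other control mice, and the knockout mouse on the same array was also the highest of its group at 8.21. The knockout mouse of replicate 3 had a level of 6.74 on probe 1 of Ppp1r8, against 6.88 to 6.89 in the other knockout mice.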

How the results depend on the processing

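Cd36 was above 0 in all 15 alternatives, between 1.76 and 2.26, with adjusted p of 0.00238 to 0.249. It passed an adjusted p of 0.05 with median centring (2.05), the separate-channel fit, no filter on dim probes and the trended robust fit (2.01 each). With 1 replicate left out it was 1.76 to 2.26, and the adjusted p was 0.0884 to 0.249. The number of genes past the threshold was 0 in the reported fit, 8 with processed signals, 29 without background correction, 210 with median centring (163 higher, 47 lower), 10 without a dye term, 2762 in the separate-channel fit, 257 without a filter and 382 in the trended robust fit. It was 0 in the other alternatives and with any replicate left out. In the separate-channel fit, where 16.9% of 16301 genes passed, 3 other members passed (Slc27a2, Slc27a5 and Vldlr). Fabp4 was -0.40 to 0.15 with 1 replicate left out and changed sign to 0.15 without replicate 3. The causes were not tested. No other member changed sign in these alternatives. The reported fit is paired by array, since each ratio joins 1 knockout and 1 control mouse, so no further replicate block was added. With 4 arrays the exact test cannot go below 0.125.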

Other observations

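Alas2, the erythroid enzyme that starts haem synthesis, had log2 ratios of 0.36, -2.08, -2.28 and -2.25, with replicate 1 on the other side of 0 from the rest, and an adjusted p of 0.145 in limma. Hba-a1, an alpha globin, had -0.18, 0.21, -0.73 and 0.17. Cfd, an adipocyte marker, had 1.66, -1.15, -2.23 and 0.15. Pnlip, the pancreatic lipase, had 5.31, -3.27, -0.17 and -1.56. These 4 marker genes were named after their values were seen.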
